A study of Mus musculus with 6 samples.

Results

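The Gimap genes encode the GTPases of immunity-associated proteins, a family of guanine nucleotide-binding proteins that lymphocytes make. Members were all genes whose symbol starts with Gimap and a digit in the platform annotation. These were 8 of the 19938 genes measured, namely Gimap1, Gimap3, Gimap4, Gimap5, Gimap6, Gimap7, Gimap8 and Gimap9. Each was read by 1 probe set that named no other gene, so no choice between probe sets arose. The T cells were BDC2.5 CD4 T cells, which carry a T cell receptor specific for a pancreatic beta cell antigen, recovered from spleen. The hosts were NOD females, a strain prone to autoimmune diabetes, and were 7 weeks old. Recipients of BDC2.5 T cells had been injected with 100 ng of an antibody against DCIR2 that carried the BDC antigen (anti-DCIR2-BDC), with 100 ng of an antibody against DEC205 that carried it (anti-DEC205-BDC), or with PBS. Both antibodies deliver the antigen to dendritic cells, DCIR2 and DEC205 being surface receptors of different dendritic cell subsets. After 14 h, Thy1.1+CD4+ cells were sorted. Biological duplicates, per the labels, gave 2 arrays in each of 3 groups, and the number of mice behind an array is not stated. No group here received an antibody without its antigen, so a response to the antibody alone cannot be told apart.

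Gimap proteins share a GTPase domain of the AIG1 type, first described in plants, and many are anchored to membranes inside the cell. They are best known for keeping resting lymphocytes alive. In the rat, a mutation of Gimap5 causes loss of T cells in the diabetes-prone BB strain. Mice that lack Gimap5, or that lack Gimap1 in their T cells, have few peripheral T cells. The genes lie side by side in 1 cluster on mouse chromosome 6.

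Values are log2 expression per probe set as deposited, so a difference of 1 is a doubling. The 6 arrays had medians of 5.43 to 5.56. Differences were tested with limma over all genes, and a gene was said to fall or rise where the adjusted p was under 0.05. By mean probe signal, the 11 measured T cell identity markers stood at percentiles 94.1 to 99.7 of all genes, with Cd3e at 99.7 and Cd4 at 99.1. Markers of other cells ran from 10 to 54.1 for 8 B cell genes, from 14.3 to 68.2 for 10 macrophage and monocyte genes, from 3.9 to 78.3 for 11 dendritic cell genes and from 5.8 to 85.2 for 8 natural killer cell genes. Probe signal also depends on the probe, so these ranks only describe the arrays.

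After anti-DCIR2-BDC 5 of the 8 Gimap genes fell against PBS (Gimap6, Gimap4, Gimap7, Gimap8 and Gimap3), to between 35.0% and 47.3% of the PBS level. After anti-DEC205-BDC 3 of the 8 fell (Gimap4, Gimap8 and Gimap6), to between 51.4% and 55.3%. No member rose in either comparison, also at an unadjusted p under 0.05. Across all genes, 7.82% fell and 10.1% rose after anti-DCIR2-BDC, 17.9% in all, and 3.53% fell and 5.32% rose after anti-DEC205-BDC, 8.84% in all. At an unadjusted p under 0.05, 6 members were lower after anti-DCIR2-BDC and 5 after anti-DEC205-BDC, against 13.7% and 10.1% of all genes. The 3 genes that fell after anti-DEC205-BDC were among the 5 that fell after anti-DCIR2-BDC. Both comparisons used the same PBS arrays. The median log2 change of the members was -1.14 after anti-DCIR2-BDC and -0.73 after anti-DEC205-BDC, against -0.05 and -0.03 over all genes. In sorted cells measured in bulk, less RNA per cell and fewer cells that express a gene cannot be told apart.

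**Figure D1:**
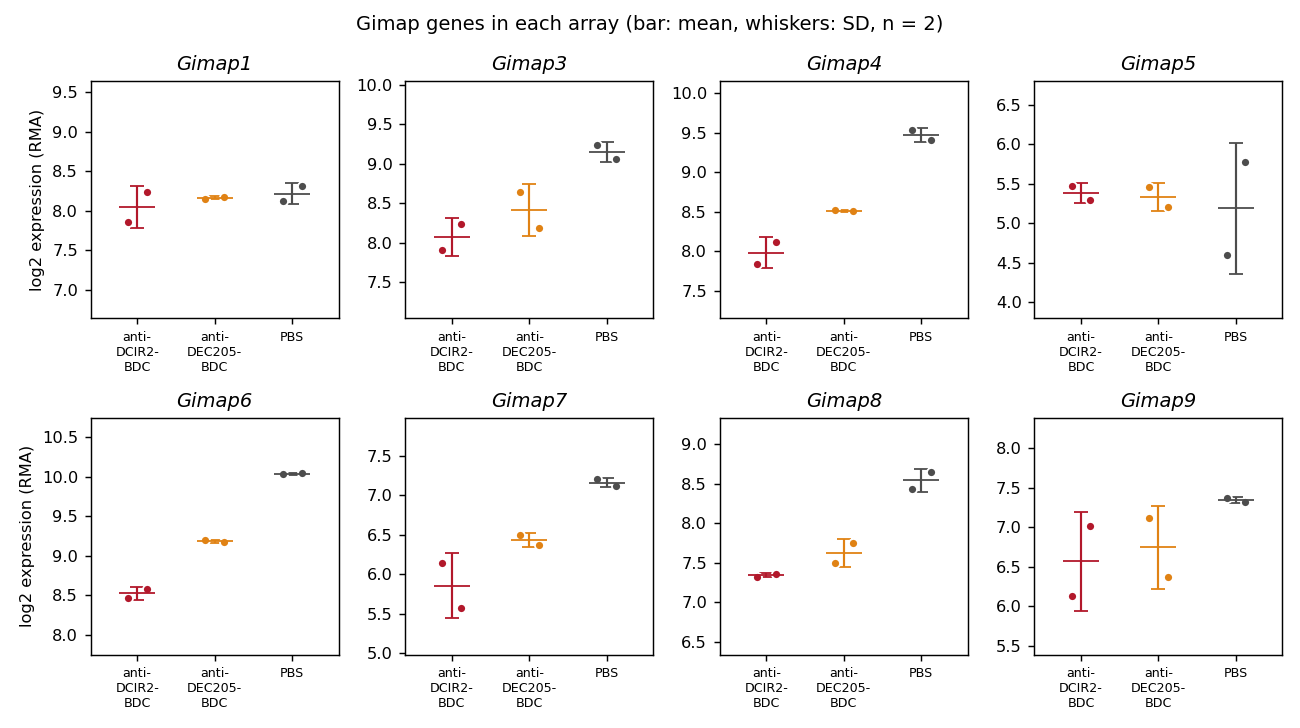
Log2 expression of the 8 Gimap genes in each array, with anti-DCIR2-BDC, anti-DEC205-BDC and PBS from left to right. Points are arrays, horizontal bars group means and whiskers the SD (n = 2), and every panel spans 3 log2 units. Gimap6, Gimap4, Gimap7 and Gimap8 step up from left to right without overlap, whereas Gimap1 and Gimap5 overlap in all groups.

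Gimap6, whose product binds the autophagy protein Gabarapl2, gave the clearest separation. It read 8.46 and 8.59 on the anti-DCIR2-BDC arrays, 9.20 and 9.17 on the anti-DEC205-BDC arrays, and 10.03 and 10.05 on the PBS arrays. The groups did not overlap, and the widest gap between arrays of a group was 0.124, after anti-DCIR2-BDC. Against PBS it fell by 1.52 after anti-DCIR2-BDC (standard error 0.16, adjusted p = 0.00014) and by 0.86 after anti-DEC205-BDC (adjusted p = 0.00811). These falls left 35.0% and 55.3% of the PBS level.

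Gimap4, which in mice alters how readily T cells die, showed the same order. Its values were 7.84 and 8.12 after anti-DCIR2-BDC, 8.52 and 8.50 after anti-DEC205-BDC, and 9.54 and 9.41 after PBS. Again no group overlapped another. The change was -1.49 after anti-DCIR2-BDC (standard error 0.18, adjusted p = 0.000309) and -0.96 after anti-DEC205-BDC (adjusted p = 0.00912). The call after anti-DEC205-BDC was lost when PBS array 1 was left out (adjusted p = 0.0572). Over the alternatives its adjusted p ranged between 0.00292 and 0.0572.

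Gimap7 has a human counterpart that hydrolyses GTP as a dimer. Its values were 6.14 and 5.56 on the anti-DCIR2-BDC arrays, 6.49 and 6.36 on the anti-DEC205-BDC arrays, and 7.20 and 7.12 on the PBS arrays. The anti-DCIR2-BDC arrays were 0.58 apart, yet both stayed below every other array. It fell by 1.31 after anti-DCIR2-BDC (standard error 0.21, adjusted p = 0.00177). After anti-DEC205-BDC the change of -0.73 missed the threshold (adjusted p = 0.0633, range 0.0381 to 0.223 over the alternatives), and it passed in 3 of 17 alternatives, among them those without the dimmest 30% (0.0499) or 50% (0.0381) of genes.

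Gimap8, whose product carries several of the GTPase domains in a row, read 7.32 and 7.36 after anti-DCIR2-BDC, 7.50 and 7.74 after anti-DEC205-BDC, and 8.44 and 8.64 after PBS. The antibody groups lay close together here and both well below PBS. Its changes were -1.20 (standard error 0.19, adjusted p = 0.00153) after anti-DCIR2-BDC and -0.92 (standard error 0.19, adjusted p = 0.0146) after anti-DEC205-BDC. The call after anti-DEC205-BDC was lost without its array 1 (adjusted p = 0.0922) or PBS array 2 (0.0788), and its adjusted p spanned 0.00588 to 0.0922 over the alternatives.

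Gimap3, a close relative of Gimap5 that in mice affects how mitochondrial DNA variants are sorted in blood cells, read 7.90 and 8.24 after anti-DCIR2-BDC, 8.65 and 8.18 after anti-DEC205-BDC, and 9.24 and 9.06 after PBS. The antibody groups overlapped each other and lay below both PBS arrays. The change of -1.08 after anti-DCIR2-BDC passed (standard error 0.21, adjusted p = 0.0054). It missed the threshold without anti-DCIR2-BDC array 1 (0.0615), the highest of its adjusted p-values over the alternatives, which started at 0.00179. After anti-DEC205-BDC the change was -0.74 (adjusted p = 0.0633, range 0.0267 to 0.334 over the alternatives). It passed with quantile normalization (0.0385) and without the dimmest 30% (0.0413) or 50% (0.0267) of genes.

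Gimap9 was the most variable member within the antibody groups. It read 6.13 and 7.01 after anti-DCIR2-BDC, 7.12 and 6.38 after anti-DEC205-BDC, and 7.37 and 7.31 after PBS. All 4 antibody arrays lay below the PBS arrays, but arrays of 1 group differed by as much as 0.89. The changes of -0.77 after anti-DCIR2-BDC (95% interval -1.46 to -0.08, adjusted p = 0.128) and -0.59 after anti-DEC205-BDC (-1.28 to 0.09, adjusted p = 0.32) did not pass. Leaving out anti-DCIR2-BDC array 2 gave -1.21 (adjusted p = 0.0487), whereas leaving out array 1 gave -0.33 (0.621), and these were the extremes over the alternatives. The change after anti-DEC205-BDC was -0.97 without its array 1 and -0.22 without its array 2.

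Gimap1 is needed by mature T and B cells of the mouse. It read 7.86 and 8.24 on the anti-DCIR2-BDC arrays, 8.15 and 8.17 on the anti-DEC205-BDC arrays, and 8.12 and 8.31 on the PBS arrays. All groups overlapped. Its changes were -0.17 after anti-DCIR2-BDC (95% interval -0.61 to 0.28, adjusted p = 0.67) and -0.05 after anti-DEC205-BDC (-0.49 to 0.39, adjusted p = 0.936). Neither interval holds the smallest change called among the Gimap genes in that comparison, -1.08 for Gimap3 after anti-DCIR2-BDC and -0.86 for Gimap6 after anti-DEC205-BDC. The probe set was bright, at percentile 90 of all genes by mean probe signal.

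Gimap5, the gene mutated in the BB rat, could not be read well here. Its values were 5.47 and 5.30 after anti-DCIR2-BDC, 5.46 and 5.21 after anti-DEC205-BDC, and 4.60 and 5.78 after PBS. The PBS arrays differed by 1.17, the largest gap between arrays of a group for any member, and enclosed all 4 antibody arrays. The probe set was dim, at percentile 41.4. The changes were 0.19 after anti-DCIR2-BDC (95% interval -0.47 to 0.86, adjusted p = 0.756) and 0.14 after anti-DEC205-BDC (-0.52 to 0.81, adjusted p = 0.861). The PBS arrays set the sign. Without PBS array 1 the changes were -0.39 and -0.44, and without PBS array 2 they were 0.78 and 0.73, the 0.78 after anti-DCIR2-BDC then passing (adjusted p = 0.0247, with 0.915 as the other extreme over the alternatives).

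**Figure D2:**
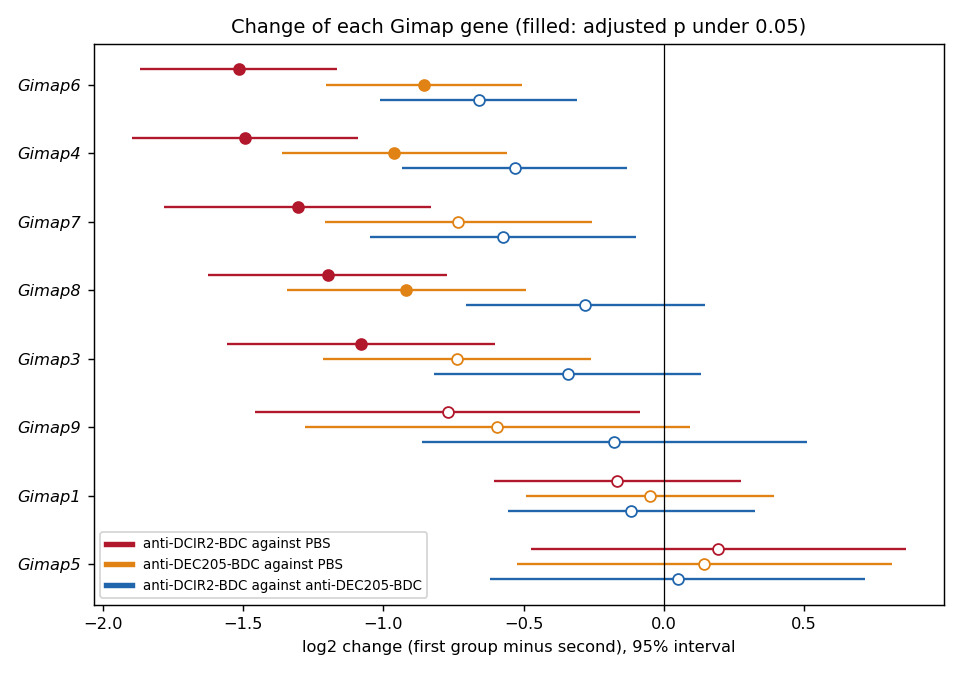
Log2 change of each Gimap gene with its 95% interval in the 3 comparisons, the first-named group minus the second. Filled points passed at an adjusted p under 0.05. Filled points are found in the comparisons against PBS for Gimap6, Gimap4, Gimap7, Gimap8 and Gimap3, and no point is filled between the antibodies.

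Set side by side, 7 of the 8 members had their lowest mean after anti-DCIR2-BDC, an intermediate one after anti-DEC205-BDC and the highest after PBS, with Gimap5 the exception. That order held for 28.5% of all genes. The direct comparison of the antibodies asked whether anti-DCIR2-BDC differed from anti-DEC205-BDC. No Gimap gene passed it in limma, and 3 members (Gimap6, Gimap4 and Gimap7) were lower at an unadjusted p under 0.05, as were 4.63% of all genes. The largest difference was -0.66 for Gimap6 (95% interval -1.01 to -0.31, unadjusted p = 0.00174, adjusted p = 0.223), which put it at percentile 1.2 among the changes of all genes. Gimap7 differed by -0.57 (-1.05 to -0.10) and Gimap4 by -0.53 (-0.93 to -0.13). The value for Gimap7 was -0.86 without anti-DCIR2-BDC array 1 and -0.28 without array 2. For Gimap3 and Gimap8 the intervals ran from -0.82 to 0.13 and from -0.71 to 0.15. Without single arrays, Gimap3 lay between -0.57 and -0.11, at its ends without anti-DEC205-BDC array 2 and array 1, and Gimap8 reached -0.16 without anti-DEC205-BDC array 2. For Gimap6, Gimap4, Gimap7 and Gimap8 both anti-DCIR2-BDC arrays lay below both anti-DEC205-BDC arrays, a separation seen downwards in 20.9% of all genes. Only 4 of 19938 genes passed this comparison, or 0.0201%.

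**Figure D3:**
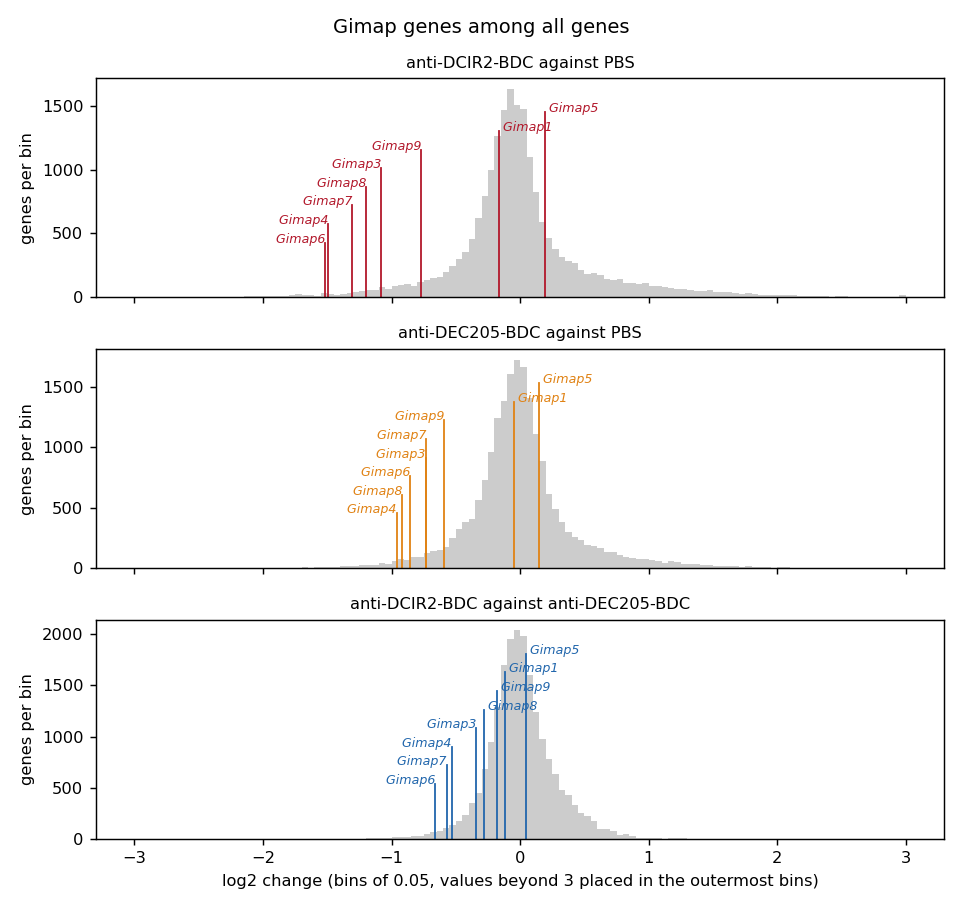
Distribution of the log2 change of all 19938 genes in each comparison (grey, genes per bin) with the 8 Gimap genes marked by lines whose heights carry no value. Against PBS, 6 members lie in the lower tail, while Gimap1 and Gimap5 lie outside that tail.

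Against PBS, 6 of the 8 members (all but Gimap1 and Gimap5) had both antibody arrays below both PBS arrays, after anti-DCIR2-BDC and again after anti-DEC205-BDC. Such a separation was seen in 31.9% and 26.5% of all genes. Those 6 members lay between percentiles 1.07 and 5.71 of the changes of all genes after anti-DCIR2-BDC, and between 1.56 and 5.39 after anti-DEC205-BDC. Gimap1 and Gimap5 lay at 32.5 and 77.2 after anti-DCIR2-BDC, and at 45.5 and 74.5 after anti-DEC205-BDC. Arrays of a group did not move all members together. Array 2 was above array 1 for 6 members after anti-DCIR2-BDC, for 2 after anti-DEC205-BDC and for 4 after PBS, with median gaps of 0.31, 0.19 and 0.15.

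The cluster allowed a comparison with genes on either side. RefSeq places Gimap8, Gimap9, Gimap4, Gimap6, Gimap7, Gimap1, Gimap5 and Gimap3 in this order, with 1 pseudogene and 1 long noncoding RNA gene as the only other genes between them. Gimap1 and Gimap5, neither of which passed in any comparison, are next to each other between Gimap7 and Gimap3. Of 93 other RefSeq genes in the cluster or within 500 kb on each side, 21 were measured. Their mean probe signal ran from percentile 9.8 to 96.7, and the dim ones have little room to fall. Of the 21 none rose in either comparison. At an unadjusted p under 0.05, 1 was higher and 2 were lower after anti-DCIR2-BDC, and 0 were higher and 3 lower after anti-DEC205-BDC. At that threshold 2871 and 2130 of all 19938 genes were higher, and 13.7% and 10.1% were lower. By the adjusted p, 1 of the 21 fell after anti-DCIR2-BDC and 1 after anti-DEC205-BDC, against 7.82% and 3.53% of all genes. The 1 after anti-DCIR2-BDC was Rarres2, which encodes the chemoattractant chemerin (log2 change -0.80, adjusted p = 0.0479), from a dim probe set at percentile 36.9. The 1 after anti-DEC205-BDC was the zinc finger gene Zfp467 (-0.57, adjusted p = 0.045, percentile 35.1), named after its value was seen. Tmem176b, the nearest measured gene beyond Gimap3, changed by -0.54 after anti-DCIR2-BDC and -0.50 after anti-DEC205-BDC (adjusted p = 0.129 and 0.217). The bright neighbours Tra2a, a splicing factor, and Malsu1, a mitochondrial ribosome factor, had changes of 0.48 and 0.33 after anti-DCIR2-BDC (adjusted p = 0.106 and 0.308). Lrrc61 and Zfp775 had changes of -0.40 and -0.41 (adjusted p = 0.356 and 0.197). The median change of the 21 was -0.12 after anti-DCIR2-BDC and -0.04 after anti-DEC205-BDC.

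**Figure D4:**
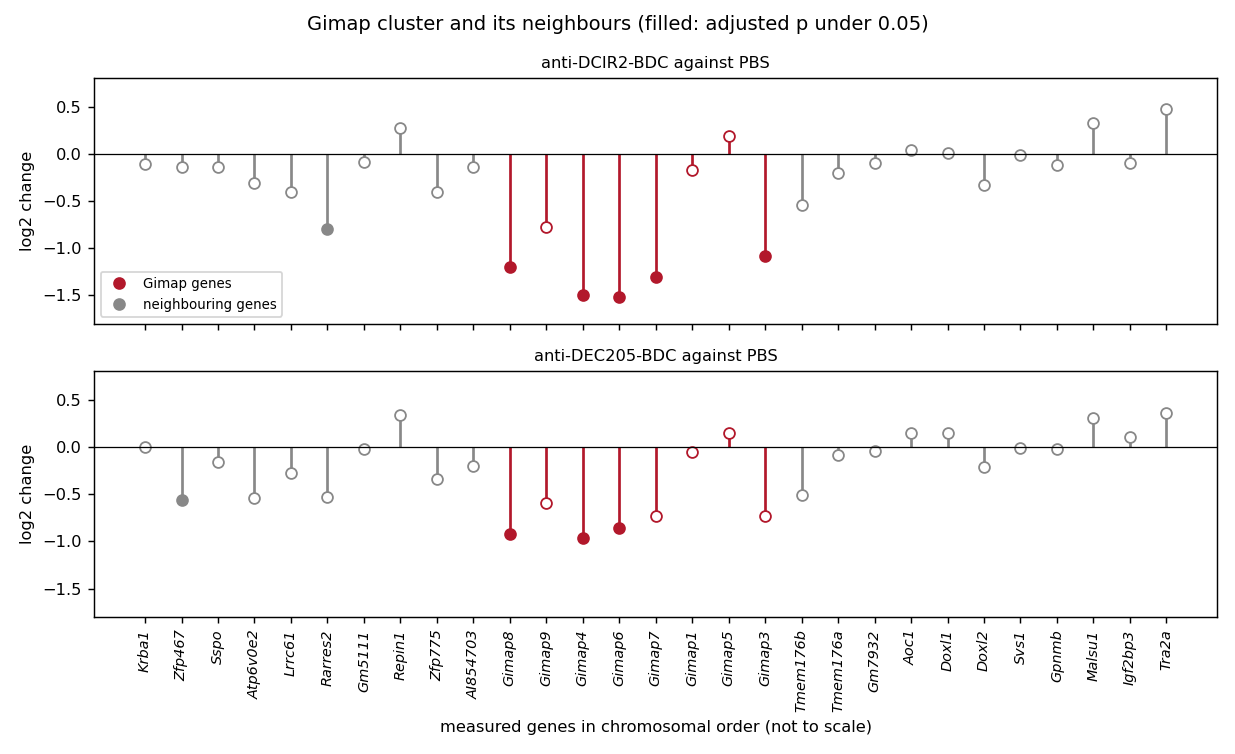
Log2 change of the measured genes of the Gimap cluster and of the 500 kb on each side, in chromosomal order and not to scale, for anti-DCIR2-BDC against PBS (above) and anti-DEC205-BDC against PBS (below). Filled points passed at an adjusted p under 0.05. The Gimap genes reach -1.52, while the 21 neighbours span -0.80 to 0.48 in the upper panel. The neighbours include dim probe sets, from percentile 9.8 of mean probe signal, which have little room to fall.

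To show what members that fell and the neighbouring pair that did not pass have in front of them, the 250 bases before the start are given for Gimap6 and Gimap4, the members with the largest falls, and for Gimap1 and Gimap5. They are RefSeq sequences of GRCm38.p6, written 5′ to 3′. Capitals mark GGAAGT, a core bound by ETS factors, and TGTGGT, a core bound by RUNX factors, on either strand (ACTTCC and ACCACA when reversed).
Gimap6 (chr6:48708245-48708494, strand -): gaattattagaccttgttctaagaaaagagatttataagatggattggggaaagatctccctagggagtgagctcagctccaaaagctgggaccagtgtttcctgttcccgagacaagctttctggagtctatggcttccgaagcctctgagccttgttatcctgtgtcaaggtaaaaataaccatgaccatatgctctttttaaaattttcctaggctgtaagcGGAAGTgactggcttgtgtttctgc
Gimap4 (chr6:48684328-48684577, strand +): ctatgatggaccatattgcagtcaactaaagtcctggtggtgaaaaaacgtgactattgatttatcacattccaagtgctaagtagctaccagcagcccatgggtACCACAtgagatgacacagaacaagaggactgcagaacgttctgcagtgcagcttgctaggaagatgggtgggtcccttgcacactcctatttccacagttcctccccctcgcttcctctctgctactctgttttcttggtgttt
Gimap1 (chr6:48738797-48739046, strand +): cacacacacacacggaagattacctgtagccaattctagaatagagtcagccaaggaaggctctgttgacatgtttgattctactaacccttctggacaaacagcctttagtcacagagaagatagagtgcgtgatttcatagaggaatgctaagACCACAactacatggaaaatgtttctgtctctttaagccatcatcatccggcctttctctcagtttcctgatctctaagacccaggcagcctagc
Gimap5 (chr6:48745947-48746196, strand +): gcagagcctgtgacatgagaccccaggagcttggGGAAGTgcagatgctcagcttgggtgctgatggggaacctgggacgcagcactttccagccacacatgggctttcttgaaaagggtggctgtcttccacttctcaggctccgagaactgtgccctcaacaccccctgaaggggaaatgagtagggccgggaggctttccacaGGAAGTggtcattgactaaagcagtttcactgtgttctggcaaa

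RefSeq windows were matched for all 8 members, with 9 windows in all because Gimap8 has 2 starts that share much of their sequence. In windows from 250 bases before to 50 after the start, GGAAGT was found in 4 of the members, against 23.8% of 32851 promoter windows. With positions counted from the start, it began at -25 in Gimap6 and at -216 and -44 in Gimap5. In Gimap1 and Gimap9 it was found from the start on, outside the 250 bases printed for Gimap1. TGTGGT was found in 3 members, beginning at -145 in Gimap4, -79 in Gimap7 and -95 in Gimap1, against 16.8% of windows. The forkhead core GTAAACA was found in 1 (Gimap3), against 3.65%. CCACCC, a core of KLF factors, was found in 5 (Gimap3, Gimap4, Gimap5, Gimap8 and Gimap9), against 31.5%, and CTTTGAT, a TCF and LEF core, in 0, against 3.73%. No match of 1 core overlapped a match of another in these windows. None of the 5 cores was found in every member that fell, and both GGAAGT and TGTGGT were also found in front of or just after the start of members that did not. The 250 bases held 1 to 8 CpG sites, against a median of 6 over all windows. These matches describe letters only.

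Genes of resting T cells and of reported Gimap partners were read on the same arrays. Both lists were chosen with earlier results of these data known, so their counts are a description only. Across all genes, 7.82% fell and 10.1% rose after anti-DCIR2-BDC, and 3.53% fell and 5.32% rose after anti-DEC205-BDC. Of 22 measured naive and quiescent T cell genes 17 fell after anti-DCIR2-BDC and 12 after anti-DEC205-BDC. None rose, though 1 was higher at an unadjusted p under 0.05 after anti-DCIR2-BDC, as were 2871 of all 19938 genes. The median log2 changes were -1.35 and -0.75. Il7r encodes the IL-7 receptor alpha chain, through which resting T cells receive a survival signal. It changed by -2.64 after anti-DCIR2-BDC (adjusted p = 0.000136) and by -1.88 after anti-DEC205-BDC (adjusted p = 0.00276). Pdcd4, a translation inhibitor, changed by -2.12 after anti-DCIR2-BDC (adjusted p = 9.77e-05). Txnip, an inhibitor of glucose uptake, changed by -2.40 after anti-DCIR2-BDC and by -1.58 after anti-DEC205-BDC, and passed in both. Among 7 measured genes whose products are reported to bind Gimap proteins or act with them, 1 rose and 2 fell after anti-DCIR2-BDC. None passed after anti-DEC205-BDC. At an unadjusted p under 0.05, 2 were higher and 2 lower after anti-DCIR2-BDC, and 2 were higher and 1 lower after anti-DEC205-BDC. At that threshold 2871 and 2130 of all 19938 genes were higher, and 13.7% and 10.1% were lower. Bcl2l1, which encodes the survival protein Bcl-xL, rose by 1.26 (adjusted p = 0.00583), Bcl2, another survival gene, fell by 1.08 (adjusted p = 0.0017), and the autophagy gene Gabarap fell by 0.71 (adjusted p = 0.0134).

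**Figure D5:**
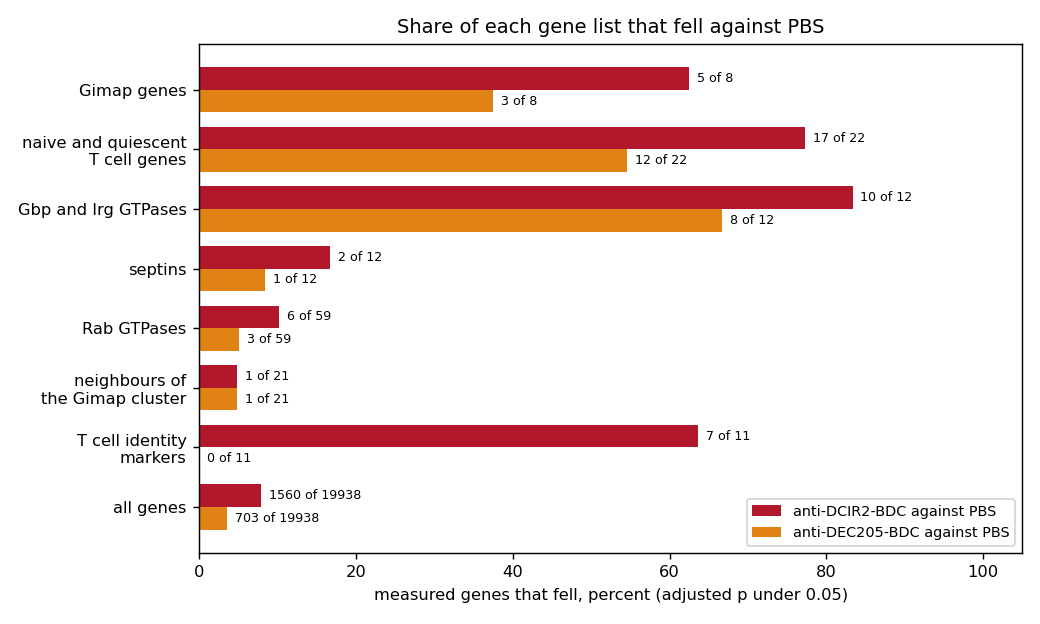
Share of the measured genes of each list that fell against PBS at a limma adjusted p under 0.05, for anti-DCIR2-BDC and anti-DEC205-BDC, with the counts beside each bar. The Gimap genes, the naive and quiescent genes and the Gbp and Irg GTPases have larger shares than the 7.82% and 3.53% of all genes. So do the septins (2 and 1 of 12) and, by less, the Rab GTPases (6 and 3 of 59). The T cell identity markers do so after anti-DCIR2-BDC only (7 of 11, against 0 of 11 after anti-DEC205-BDC). The lists were chosen with earlier results of these data known, so these shares are a description only. Among the neighbours of the cluster, 1 and 1 of 21 fell.

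Markers of the T cells themselves moved with the Gimap genes after anti-DCIR2-BDC. Of 11 measured T cell identity markers 7 fell and 1 rose there, whereas 0 fell and 1 rose after anti-DEC205-BDC, with 4 lower there at an unadjusted p under 0.05. Over all genes 7.82% fell and 10.1% rose after anti-DCIR2-BDC, and 3.53% fell and 5.32% rose after anti-DEC205-BDC. The summed level of the 11 markers, as log2, ranged from 13.65 to 13.66 after anti-DCIR2-BDC, from 13.99 to 14.06 after anti-DEC205-BDC and from 14.28 to 14.38 after PBS. Cd3g, Cd2 and Cd3d led the falls (-1.24, -1.15 and -1.03 after anti-DCIR2-BDC, adjusted p = 0.000221, 0.00123 and 0.000614), and Zap70, a kinase of the T cell receptor, rose by 1.31 (adjusted p = 0.00146). Of 8 natural killer cell markers 3 fell and 1 rose after anti-DCIR2-BDC, and 2 fell and 1 rose after anti-DEC205-BDC. Klrd1, a receptor chain of natural killer and some T cells, fell most after anti-DCIR2-BDC, with a change of -2.62, against -1.54 after anti-DEC205-BDC. Eomes, a transcription factor, rose by 1.06 and 1.64. The summed level of that list was 8.88 to 9.11 after anti-DCIR2-BDC, 9.19 to 9.28 after anti-DEC205-BDC and 9.51 to 9.74 after PBS. Percentiles in that list ran from 5.8 for Klra8 to 85.2 for Nkg7, with Klrb1c at 6.6, Ncr1 at 12.7, Klrd1 at 59.3 and Prf1 at 73.5. Of 6 endothelial markers 1 fell in both, Pecam1 (-1.96 after anti-DCIR2-BDC and -1.06 after anti-DEC205-BDC, adjusted p = 0.000517 and 0.0304), with the list's summed level at 7.95 to 8.01 after anti-DCIR2-BDC, 8.42 to 8.56 after anti-DEC205-BDC and 8.95 to 9.52 after PBS. Percentiles in the endothelial list ran from 14.1 for Kdr to 86.6 for Pecam1, with Vwf next below Pecam1 at 45.3. The differences in that summed level come mainly from Pecam1. The median log2 change of the endothelial list was -0.004 after anti-DCIR2-BDC and 0.002 after anti-DEC205-BDC. Among 2 CD8 T cell, 8 B cell, 11 dendritic cell, 7 neutrophil and 3 erythroid markers 0 passed in either comparison. At an unadjusted p under 0.05, 0, 2, 1, 1 and 0 of these were lower after anti-DCIR2-BDC, and 1, 2, 0, 0 and 1 after anti-DEC205-BDC. At that threshold 13.7% and 10.1% of all genes were lower. Of 10 macrophage and monocyte markers 1 fell, Cd14 after anti-DEC205-BDC (-0.83, adjusted p = 0.0341). At an unadjusted p under 0.05, 3 of the 10 were lower after anti-DCIR2-BDC, and 2 were lower and 1 higher after anti-DEC205-BDC. Over all genes 2130 of 19938 were higher there. The part of these markers in the Gimap values was not tested.

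By the distance between array profiles, each taken as 6 values less their mean, the genes most like the mean Gimap profile were Birc2, Hsdl2, Clec2i, Kdm6a, Cyld, Rapgef6, Pacs1 and Sp3. Their root-mean-square distances over the 6 arrays were 0.046 to 0.065 log2 units, against a median of 0.401 over the genes compared. Birc2 encodes a ubiquitin ligase and Cyld a deubiquitinase of TNF receptor signalling, Kdm6a a histone demethylase and Sp3 a transcription factor. Given as a description, since they were chosen for these values, the 8 genes had log2 changes of -1.0 to -0.83 after anti-DCIR2-BDC and -0.66 to -0.51 after anti-DEC205-BDC. Birc2 had -0.99 (adjusted p = 0.00429) and -0.60 (0.0833), and none of the 8 passed after anti-DEC205-BDC. Members, which unlike these 8 genes were not picked by distance, were farther from their own mean, from 0.153 for Gimap3 to 0.558 for Gimap5. That mean includes Gimap1 and Gimap5, which passed in no comparison.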

How the data were processed

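Expression was measured with Affymetrix arrays in 3 groups of 2. Per the labels' protocols, 5 ng of total RNA per sample was amplified and labelled with biotin. The deposited values are on a log2 scale, 1 per probe set. The authors made them with the RMA algorithm of Partek, per the submitters' processing notes (version and settings not given in the sources used). Since RMA equalises array distributions, a shift of every gene together would not show. Deposited columns hold single arrays, not means, with 0 values missing among 35556 probe sets. The number of arrays limits the precision, and where duplicates share a source the p-values measure only the spread between these arrays.

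The platform annotation gave 21789 probe sets 1 symbol. Of the genes so named, 999 had several and were represented by the brightest on average, giving 19938 genes, dim ones included. Through Entrez identifiers, 21698 of those probe sets had an entry in RefSeq's GRCm38.p6 annotation, which changed 0 symbols. No pair of arrays had more than 22 identical values. The test was limma 3.58.1 under R 4.3.3, fitted to the 6 arrays at once with a mean for each group, a variance trend on the mean, two-sided tests and Benjamini-Hochberg adjustment over all genes at 0.05. The code of the fit was tested on data simulated with the spread that the fit itself estimates, which cannot check the calls made here. Percentages of the PBS level are 2 to the power of the log2 change. Every member is named; of each other list, up to 4 members that passed with the largest changes were named, and of septin, Rab and Gbp and Irg genes up to 2. Of the neighbours the 6 with the largest changes after anti-DCIR2-BDC were named, and of profiles like the family's the 8 nearest; single marker genes given by percentile were named after their values were seen. Members and lists were chosen with earlier results of these data known, and the promoter cores after the values were seen. The alternatives were 2 other scalings, 2 treatments of probe sets, 2 filters on dim genes, no trend or a robust one, array weights, the 4 arrays compared alone, a replicate block, and leaving out each of the 6 arrays. Cross-hybridisation between related Gimap genes was not tested. Figures were drawn with matplotlib 3.10.9.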

Additional observations from a re-analysis of the deposited data

How the results depend on the processing

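Over the 24 changes of a Gimap gene and 17 alternatives, 383 of 405 values kept their direction and their side of the threshold, 4 lost a call, 8 gained one and 10 changed sign. In many of these alternatives the log2 change of a member could not move, so its direction was fixed there. That holds for the probe set treatments, since each member has 1 probe set, and for the filters, trend settings and replicate block. It also holds for the 4 arrays compared alone, for array weights apart from rounding, and where the array left out lies outside the comparison. Gimap5 fell below the filter that removed the dimmest 50% of genes and has no value there. Leaving out single arrays gave 4 to 6 falling members after anti-DCIR2-BDC (5 with all arrays), 2 to 3 after anti-DEC205-BDC (3 with all arrays) and 0 between the antibodies. Without the dimmest 30% or 50% of genes, 5 members fell after anti-DEC205-BDC. In these fits 1967 and 2065 genes passed in all, against 1763 without a filter. They tested fewer genes and also refitted the variance trend. Counts over all genes without 1 array ranged from 2090 to 3637 after anti-DCIR2-BDC (3568 with all), from 997 to 1367 after anti-DEC205-BDC (1763 with all), and from 0 to 27 between the antibodies (4 with all). These ranges include fits without an array of the group not compared, which gave the upper ends of both ranges against PBS. Between the antibodies 7 and 9 genes passed without the dimmest 30% and 50%, 0 with no trend and 2 with the replicate block. The cause of these differences was not tested.

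Changes of sign occurred in Gimap1, Gimap5 and Gimap9. Leaving out single arrays, Gimap1 ranged from -0.36 to 0.025 after anti-DCIR2-BDC, from -0.14 to 0.044 after anti-DEC205-BDC and from -0.31 to 0.074 between the antibodies. Centring each array on its median put it at 0.0021 after anti-DEC205-BDC. Gimap5 ranged from -0.39 to 0.78 after anti-DCIR2-BDC, from -0.44 to 0.73 after anti-DEC205-BDC and from -0.078 to 0.18 between the antibodies. Gimap9 ranged from -0.62 to 0.27 between the antibodies. The labels do not say that equal replicate numbers share a mouse or day, and deviations of equally numbered arrays correlated across genes at 0.071, 0.131 and 0.145 for the 3 pairs of groups, so they were not taken as pairs. With the replicate block 5 members fell after anti-DCIR2-BDC, 4 after anti-DEC205-BDC, where Gimap7 joined (-0.73, adjusted p = 0.0395), and 0 between the antibodies. Probe signal limits Gimap5.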

Other observations

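Other GTPase families, chosen with earlier results of these data known, were read on the same arrays. Across all genes, 7.82% fell and 10.1% rose after anti-DCIR2-BDC, and 3.53% fell and 5.32% rose after anti-DEC205-BDC. Of 12 guanylate-binding proteins and immunity-related GTPases, which interferon induces, 10 fell after anti-DCIR2-BDC and 8 after anti-DEC205-BDC, and none rose, also at an unadjusted p under 0.05. Gbp4 changed by -2.37 after anti-DCIR2-BDC (limma adjusted p = 9.39e-05) and Gbp9 by -2.05 (adjusted p = 6.55e-05). After anti-DEC205-BDC Gbp7 changed by -1.68 (adjusted p = 0.00405) and Gbp9 by -1.34 (adjusted p = 0.00181). Septins, cytoskeletal GTPases with a fold related to that of Gimap proteins, were mixed. Of 12 septin genes 3 rose and 2 fell after anti-DCIR2-BDC, and 1 rose and 1 fell after anti-DEC205-BDC. Septin11 rose by 2.05 and 1.72 in those comparisons (adjusted p = 8.25e-05 and 0.000809), while Septin1 changed by -1.23 and -0.57 (adjusted p = 0.000352 and 0.0453). Of 59 Rab GTPases, which direct vesicle traffic, 2 rose and 6 fell after anti-DCIR2-BDC, and 1 rose and 3 fell after anti-DEC205-BDC. Rab37 had the largest change in both, -1.40 and -1.11 (adjusted p = 0.00203 and 0.0155).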
